A study of Sus scrofa with 6 samples.

Results

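A2M, SLPI and WFDC2 are secreted protease inhibitors or inhibitor-related proteins, and they were examined in OBGF400 and PK15 pig cells. The 3 genes were taken from the platform's probe annotation, together with every probe set that carried that symbol alone, which gave 6 of 23999 tested probe sets and 3 of 6765 genes. They were selected on their log2 signals in the contrast of OBGF400 with PK15. Their levels are therefore described without a test, and nothing is read from the fact that they differ.

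OBGF400 is a line of olfactory bulb neuroblast origin according to the labels, and PK15 is a pig kidney line labelled as non-neuronal and epithelial. Both lines were untreated and grown with 10% bovine calf serum and antibiotics, OBGF400 in DMEM/F12 and PK15 in minimum essential medium that also held amphotericin B. RNA of 9 cultures per line was combined into 3 pools per line, and each pool was hybridised to 1 Affymetrix porcine array. Each group is thus 1 line, so line, medium and any hybridization batch cannot be told apart, and the spread between arrays is that between pools.

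Alpha-2-macroglobulin, the product of A2M, is a large plasma and tissue glycoprotein that inhibits proteases of every catalytic class. A protease cuts its bait region, is enclosed by the folding molecule and is then cleared with it through the receptor LRP1. SLPI, the secretory leukocyte peptidase inhibitor, and WFDC2, an epididymal protein also known as a serum marker of ovarian carcinoma, belong to the small whey acidic protein (WAP) family, whose domain is held together by a core of disulfide bonds. SLPI protects mucosal surfaces against neutrophil elastase and cathepsin G, whereas the inhibitor activity of WFDC2 is less well defined. These roles are known mainly from human.

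The deposited values are log2 signals with a common lower limit of 2.13, called the floor here. A gene counts as at the floor of a line when its 3 arrays all lie within 0.1 of that limit. Medians of the arrays ranged from 4.16 to 4.27, and each array had 25.8% to 27.3% of its probe sets at the minimum. Pearson's r across probe sets, which are not independent, was 0.997 to 0.998 among OBGF400 arrays, 0.996 among PK15 arrays and 0.860 to 0.865 between the lines. Since differences against the floor depend on where the floor lies, a second value, the offset difference, is given after 32 was added to each linear signal. Over all genes 23.9% were higher and 36.8% lower in OBGF400 (60.8% in either direction; limma, adjusted p under 0.05, the call used throughout). Arrays of OBGF400 and PK15 had no overlap for 66.9% of genes.

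Among the 3 selected genes, A2M was the one high in OBGF400. Its brightest probe set gave log2 signals of 12.03, 12.01 and 11.90 on the OBGF400 arrays, against 3.98, 3.69 and 3.36 on the PK15 arrays. The OBGF400 arrays lay within 0.12 of each other, the PK15 arrays spread over 0.62, and the closest arrays of the lines were 7.93 apart. The mean was 11.98 ± 0.07 in OBGF400 and 3.68 ± 0.31 in PK15 (SD, n = 3 each), a difference of 8.31 and an offset difference of 6.50. On the linear scale that is a ratio of 317, or 90.7 with 32 added. PK15 was low but above the floor on all 3 arrays of this probe set.

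The other A2M probe sets did not give the same picture. The next one read 9.12, 8.94 and 8.70 in OBGF400, against 2.80, 2.56 and 2.79 in PK15. Here too every OBGF400 array was above every PK15 array, by at least 5.90, and the difference was 6.20 (3.74 offset). The remaining one, which the annotation assigns to the same sequence record as the second, read 2.13 on all 6 arrays. A2M was therefore carried by 2 of its 3 probe sets, and averaging all 3 lowered its difference to 4.84. The annotation used here names no probe set for its closest relatives PZP and A2ML1, so signal shared with them was not tested.

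SLPI showed the opposite pattern. Its single probe set gave 2.27, 2.68 and 2.16 in OBGF400, against 14.27, 14.37 and 14.24 in PK15. The PK15 arrays lay within 0.13 of each other, while 1 of the 3 OBGF400 arrays was at the floor and replicate 2 was the highest of that line. Means were 2.37 ± 0.27 in OBGF400 and 14.30 ± 0.07 in PK15 (SD, n = 3 each), a difference of -11.93 and an offset difference of -9.08. The lines were separated by 11.57 at their closest arrays.

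WFDC2, like SLPI, was high in PK15. Its brighter probe set gave 2.13, 2.53 and 2.18 in OBGF400, against 12.36, 12.51 and 12.27 in PK15. With 2 of the 3 OBGF400 arrays at the floor, the mean was 2.28 ± 0.22 in OBGF400 and 12.38 ± 0.12 in PK15 (SD, n = 3 each). The difference was -10.10 (-7.18 offset), and the closest arrays were 9.74 apart. The other WFDC2 probe set read 2.18 on all 6 arrays, and the mean of both gave -5.05. Replicate 2 had the highest value of SLPI and of WFDC2 in each line, by at most 0.52 above the lowest array of its line.

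**Figure D1:**
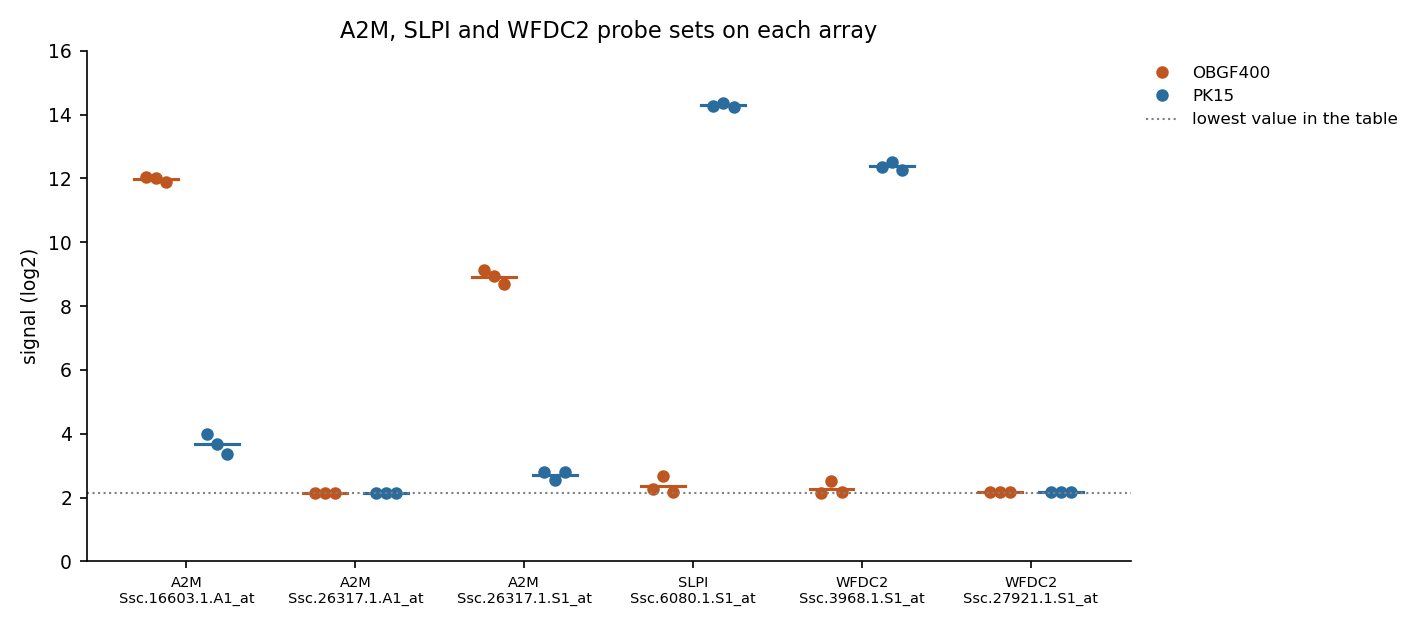
Log2 signal of the 6 probe sets of A2M, SLPI and WFDC2, with 1 point per array (3 OBGF400, 3 PK15), a bar at the mean and a dotted line at the floor of 2.13. A2M is high in OBGF400 on 2 of 3 probe sets, SLPI and WFDC2 are high in PK15 on 1 probe set each, and the remaining probe sets lie at the floor in both lines.

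Markers of cell types also differed between the lines. Their counts are set beside the shares of all genes, 23.9% higher and 36.8% lower in OBGF400. In OBGF400, 11 of the 12 epithelial markers on the array were lower and 0 higher, with summed linear signals of 63 to 67 in OBGF400 and 108230 to 111160 in PK15. CLDN3, DSP, KRT18, KRT19, MAL2 and PERP were at the floor in OBGF400. The OBGF400 array with the highest SLPI and WFDC2 signals had an epithelial sum of 65, between the other two. With 6 of the 12 markers at the floor in OBGF400, nothing is read from the order of these sums. Of 13 mesenchymal markers 10 were higher in OBGF400 and 0 lower (sums of 77691 to 80351 in OBGF400 and 17515 to 19151 in PK15), with CDH11, LUM and MMP2 at the floor in PK15. Of 6 smooth muscle markers 5 were higher and 0 lower (sums of 122093 to 128679 in OBGF400 and 656 to 1167 in PK15). The part of these cell programmes in the A2M, SLPI and WFDC2 differences was not tested, and in such bulk RNA fewer expressing cells and less RNA per cell cannot be told apart.

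The labelled cell types were checked with the same lists, again beside 23.9% higher and 36.8% lower over all genes. PK15 carried its epithelial markers. Of 5 measured neuroblast markers, NCAM1, UCHL1 and MAP2 were higher in OBGF400, STMN1 was lower and ELAVL4 was at the floor in both lines, while NES, DCX, TUBB3, SOX2 and PAX6 were not analysed here. Liver is the main source of plasma A2M, and 7 of 9 hepatocyte markers, among them ALB, TTR and FGB, were at the floor in both lines. Off the floor, APOA1 averaged 6.31 ± 0.24 in OBGF400 and 8.56 ± 0.09 in PK15 (SD, n = 3 each) and was called lower. AMBP averaged 2.60 in OBGF400 and 3.14 in PK15 without a call. Of 7 leukocyte markers 2 were higher and 3 lower (sums of 126 to 134 in OBGF400 and 3676 to 3951 in PK15). PTPRC was at the floor in both lines, whereas LAPTM5 and AIF1 were lower in OBGF400, with AIF1 at the floor there and LAPTM5 averaging 2.18 ± 0.09 in OBGF400 and 10.94 ± 0.17 in PK15 (SD, n = 3 each).

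Few other WAP-domain genes were measured, so no direction of the family is read. Beside SLPI and WFDC2, 4 listed WAP-domain genes were measured. Of these 1 was higher, 1 was lower and 2 had no call, against 23.9% higher and 36.8% lower over all genes. The median difference of the 4 was 0.01 against -0.002 for all genes. WFDC1, a WAP protein known in human as a growth suppressor of prostate stroma, had a signal of 12.67 ± 0.08 in OBGF400 and 7.46 ± 0.14 in PK15 (SD, n = 3 each). That is a rise of 5.21 (adjusted p = 4.28e-06), and its other probe set gave 5.34. PI3, the elastase inhibitor elafin, read 2.80, 2.23 and 3.58 in OBGF400, against 6.87, 7.21 and 6.15 in PK15. It was lower by -3.87 (-1.82 offset, adjusted p = 0.00183), in the direction of SLPI but with the widest spread between arrays of these WAP genes. WFDC3 and WAP, the milk whey protein, were at the floor in both lines. WFDC1, PI3, SLPI and WFDC2 kept their directions under every scaling tried, whereas the 2 floor genes took the sign of the control scaling (3 higher and 1 lower on hybridization controls, 1 higher and 3 lower on poly-A controls).

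SLPI and WFDC2 lie on 1 chromosome in the RefSeq order of Sscrofa11.1, with 11 protein-coding genes between them, and PI3 is close to SLPI. WFDC1 lies on another chromosome. From 5 genes before SLPI to 5 genes after WFDC2 there were 21 other protein-coding genes, of which 7 had a named probe set. None was higher, 2 were lower and 5 were not called (limma, against 36.8% lower over all genes). The lower genes were PI3 and the heparan sulfate proteoglycan SDC4, which lies between the inhibitors and read 6.70, 6.60 and 6.74 in OBGF400 and 7.68, 7.79 and 7.92 in PK15. The SDC4 difference of -1.12 (adjusted p = 0.000276) became -0.29 and lost its call after scaling on the hybridization controls.

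The remaining neighbours did not show the large steps of SLPI and WFDC2. SYS1, a Golgi trafficking gene, averaged 9.41 ± 0.08 in OBGF400 and 9.29 ± 0.25 in PK15 (SD, n = 3 each). PIGT, a subunit of the enzyme that attaches membrane anchors, averaged 9.30 ± 0.02 in OBGF400 and 9.32 ± 0.17 in PK15 (SD, n = 3 each). UPTI, a Kunitz-type plasmin and trypsin inhibitor of the pig uterus and the nearest measured neighbour of WFDC2, read 2.13 to 2.14 in OBGF400 and 2.14 to 2.25 in PK15. SYS1, PIGT and UPTI took the sign of the control scaling and were called with it, at 0.94, 0.80 and 0.76 on hybridization controls and -0.73, -0.87 and -0.92 on poly-A controls. UPTI was also called after median centring (-0.15) and without PK15 replicate 1 (-0.10). SPAI-2 and WFDC10AL were at the floor in both lines. Around A2M, 3 of 10 neighbours were measured. M6PR, a receptor for lysosomal enzymes, was higher by 0.57 in OBGF400 (adjusted p = 0.00489), but -0.28 and not called after poly-A control scaling. PHC1, a Polycomb gene, differed by -0.46 without a call (adjusted p = 0.0985), gaining one after median centring (-0.54), after poly-A control scaling (-1.31) and without PK15 replicate 2 (-0.61), and CLEC2D was at the floor in both lines.

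**Figure D2:**
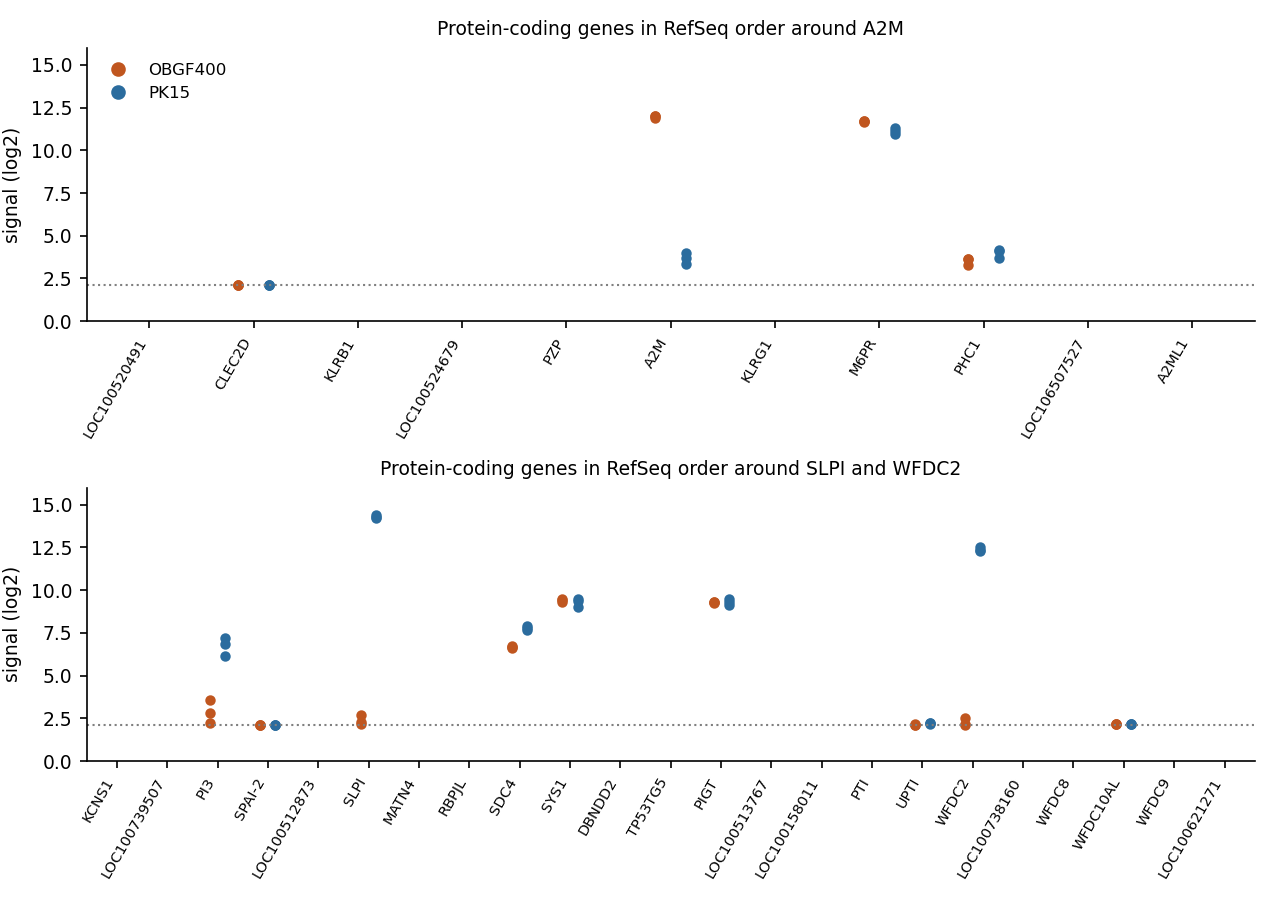
Log2 signal of protein-coding genes in RefSeq order around A2M (top) and around SLPI and WFDC2 (bottom), with 1 point per array, OBGF400 left and PK15 right of each gene and a dotted line at the floor; genes without points had no named probe set. A2M, SLPI and WFDC2 differ by 8 or more log2 units, while SYS1 and PIGT between SLPI and WFDC2 overlap between the lines.

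Too few genes of the A2M family were measured to read a direction. The list of its relatives and receptors had 5 measured genes, 1 of them higher, 2 lower and 2 without a call. Over all genes 23.9% were higher and 36.8% lower. The list's median difference was 0.13. Complement C3, which shares its fold and reactive thioester with A2M, averaged 13.04 ± 0.22 in OBGF400 and 2.82 ± 0.36 in PK15 (SD, n = 3 each), a rise of 10.23 (7.76 offset, adjusted p = 9.22e-06). C5, a relative without the thioester, averaged 6.54 ± 0.29 in PK15 but lay at the floor in OBGF400, lower by -4.41 (-1.78 offset, adjusted p = 3.89e-05). C4A differed by 0.13 (adjusted p = 0.12) and, apart from the control scalings, was called only without OBGF400 replicate 3 (0.18, adjusted p = 0.0497).

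On the receptor side, LRP1 was not analysed here. LRPAP1, the chaperone that keeps LRP1 free of ligands during its synthesis, was lower by -0.68 (adjusted p = 0.00058), but after hybridization control scaling it differed by 0.14 without a call. HSPA5, an endoplasmic reticulum chaperone that also binds activated A2M at the cell surface, averaged 14.67 ± 0.08 in OBGF400 and 14.48 ± 0.10 in PK15. Its 0.19 was not called as deposited (adjusted p = 0.0775), was called after quantile normalization (0.21) and hybridization control scaling (1.01), and was called as lower after poly-A control scaling (-0.67). The list held 3 higher and 1 lower genes on hybridization controls and 1 higher and 4 lower on poly-A controls.

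Proteases that A2M can trap were called in both directions. The array measured 15 of them, 6 higher in OBGF400 and 2 lower, against 23.9% higher and 36.8% lower over all genes. The other 7 had no call, and 6 of these lay at the floor throughout. The median difference of the 15 was 0.00. The collagenase MMP1 (12.75, 9.70 offset), the gelatinase MMP2 (11.19, 8.21 offset) and the stromelysin MMP3 (8.02, 5.20 offset) rose together with A2M. For MMP3 that holds for 2 of 4 probe sets, and the mean of the 4 gave 3.94. MMP7, the matrilysin typical of glandular epithelium, read 2.18 ± 0.09 in OBGF400 and 9.24 ± 0.17 in PK15 (SD, n = 3 each), a difference of -7.06 (-4.13 offset). The plasminogen activator PLAT was also lower (-5.15). Adjusted p-values of these 5 genes were 2.11e-07 to 8.09e-05. With the hybridization controls 13 of the list were higher and 2 lower, and with the poly-A controls 5 higher and 9 lower.

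ELANE, the neutrophil elastase that SLPI inhibits, and its relative PRTN3 lay at the floor in both lines, as did the skin protease KLK7. Cathepsin G was not analysed here. Among 17 measured genes of the elastase family and of epithelial serine proteases, 1 was higher and 5 were lower, against 23.9% higher and 36.8% lower over all genes. The other 11 had no call, and 9 genes lay at the floor throughout. PRSS23, a secreted serine protease, averaged 2.45 ± 0.13 in OBGF400 and 10.70 ± 0.19 in PK15 (SD, n = 3 each), lower by -8.25 (-5.50 offset). The pancreatic elastase gene CELA2A (-6.94, -4.23 offset) and the epithelial membrane protease matriptase, ST14 (-6.11, -3.21 offset), fell with SLPI and WFDC2. HTRA1, a secreted protease of connective tissue, was the higher member (2.82), by 1 of its 2 probe sets (1.44 as their mean). Adjusted p-values of these 4 genes were 6.09e-07 to 4.12e-05. The list held 11 higher and 4 lower genes on hybridization controls and 1 higher and 16 lower on poly-A controls, counts that include genes at the floor.

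Among the other inhibitor families, 5 of 15 measured serpins were higher, 1 was lower and 9 had no call, against 23.9% higher and 36.8% lower over all genes. SERPINB2, the plasminogen activator inhibitor of monocytes and placenta, averaged 11.33 ± 0.10 in OBGF400 and 3.21 ± 0.29 in PK15 (SD, n = 3 each), a rise of 8.12 (5.98 offset). SERPINE2, the protease nexin of glia and connective tissue, rose by 5.09, and SERPING1, the complement C1 inhibitor, by 3.78. SERPINB1, an inhibitor of neutrophil elastase, was the lower serpin (-2.92), by 1 of its 3 probe sets (-0.98 as their mean). Adjusted p-values of these 4 genes were 1.54e-06 to 1.99e-05. SERPINA1, alpha-1-antitrypsin, was at the floor in both lines. With 6 serpins at the floor in both lines, the hybridization controls gave 13 higher and 1 lower and the poly-A controls 5 higher and 10 lower.

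Of 27 measured cystatins, Kunitz, Kazal and other inhibitors, 6 were higher and 9 lower, while 12 had no call. These counts were near the shares of all genes, 23.9% higher and 36.8% lower. The list's median difference was 0.00. The Kunitz inhibitors of matriptase were lower with SLPI and WFDC2. SPINT1 averaged 3.00 ± 0.12 in OBGF400 and 8.66 ± 0.33 in PK15 (SD, n = 3 each), a difference of -5.66 (-3.45 offset). SPINT2 averaged 3.16 ± 0.52 in OBGF400 and 9.73 ± 0.07 in PK15 (SD, n = 3 each), a difference of -6.57 (-4.42 offset) that rests on 1 of its 2 probe sets (-3.31 as their mean). The falling BIRC5 (-6.18), listed as a caspase inhibitor, is better known as a mitosis gene. LXN, latexin, an inhibitor of carboxypeptidases, rose by 8.00 (5.07 offset), CST3, the ubiquitous cystatin C, by 2.30 and the Kunitz inhibitor TFPI2 by 1.28. Adjusted p-values of these 6 genes were 6.74e-07 to 0.000178. LXN's other probe set gave 2.30 (5.15 as their mean), and TFPI2 lost its call after poly-A control scaling (0.43, adjusted p = 0.051). The controls gave 18 higher and 6 lower genes on hybridization scaling and 2 higher and 21 lower on poly-A scaling.

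**Figure D3:**
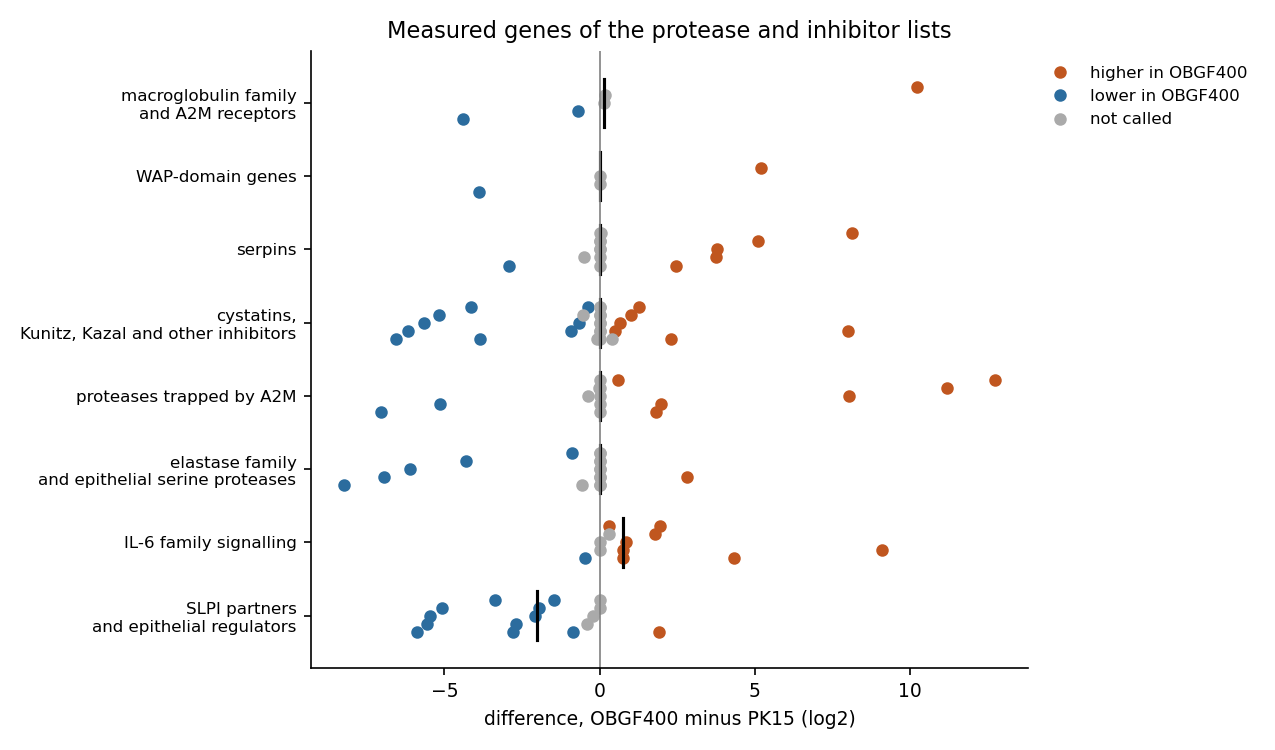
Difference of each measured gene, OBGF400 minus PK15 on the log2 scale, in 8 gene lists, coloured by the limma call at an adjusted p under 0.05, with a black line at each list's median. A2M, SLPI and WFDC2 are left out; the WAP-domain, serpin and inhibitor lists hold called genes on both sides of 0, and the elastase list holds 1 gene called higher and 5 called lower.

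In rat liver, A2M is induced by interleukin-6 through STAT3. Of 12 measured genes of the wider IL-6 family pathway, 8 were higher, 1 was lower and 3 had no call. Over all genes 23.9% were higher and 36.8% lower. The median difference of the list was 0.75 against -0.002 for all genes. Any part of this pathway in the A2M difference was not tested and cannot be told apart from line. IL6 averaged 12.86 ± 0.85 in OBGF400 and 3.77 ± 0.55 in PK15 (SD, n = 3 each), a rise of 9.09 (7.34 offset, adjusted p = 0.000179). The related ligand LIF rose by 4.34 (adjusted p = 0.000342) and the transcription factor CEBPD by 1.95 (adjusted p = 0.000171). STAT3 itself averaged 11.26 ± 0.02 in OBGF400 and 9.46 ± 0.08 in PK15, a rise of 1.80 (adjusted p = 1.12e-05), named here as the factor of that pathway after its value was seen. The receptor IL6R and the feedback inhibitor SOCS3 were at the floor in both lines. TYK2 was the lower gene (-0.46), but after hybridization control scaling it was 0.36 and called as higher. The other TYK2 probe sets gave -1.50, 0.00 and 1.27, and the mean of all gave -0.17 without a call. For CEBPD the other probe sets gave 2.22 and -0.01, with 1.39 as the mean of all. Scaled on the hybridization controls 12 genes of the list were higher and 0 lower, and on the poly-A controls 4 higher and 5 lower.

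The list that joins binding partners of SLPI, regulators of epithelial genes and epithelial surface or secreted proteins was mostly lower in OBGF400. It is called SLPI partners for short below. Among the 16 on the array, 11 fell, 1 rose and 4 had no call, against 36.8% lower and 23.9% higher over all genes. The list's median difference was -2.03 (-1.21 offset). The epithelial ETS factor ELF3 averaged 3.27 ± 0.11 in OBGF400 and 9.15 ± 0.16 in PK15 (SD, n = 3 each), lower by -5.88 (-3.85 offset). MUC1, a membrane mucin, differed by -5.57 (-3.66 offset) on 1 of its 2 probe sets, with -2.79 as their mean, and HNF4A, a nuclear receptor of kidney tubule and liver, by -5.47 (-3.80 offset). SNAI1, a repressor of epithelial genes, was higher by 1.91 (1.16 offset, and 1.17 as the mean of its 2 probe sets). Adjusted p-values of these 4 genes were 5.11e-06 to 0.000158. The hybridization controls gave 5 higher and 10 lower, and the poly-A controls 1 higher and 15 lower.

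The genes most like each inhibitor were found by the distance between log2 values centred on each gene's own mean over the 6 arrays. Nearest to A2M were VSTM4, SERPINB2, NDN, THY1 and TCF21, at distances of 0.42 to 0.47. Their differences were 8.12 to 8.53, with Pearson's r of 0.999 for each. Nearest to SLPI were the simple-epithelium keratin KRT8, the desmosome-associated PERP, the keratin KRT18, the plasma retinol carrier RBP4 and the epithelial adhesion molecule EPCAM, at 0.36 to 0.73. Nearest to WFDC2 were PDPN, TSPAN13, E-cadherin (CDH1), MAL2 and TSTD1, at 0.64 to 0.81. SLPI and WFDC2 were 2.24 apart, WFDC2 being the 9th nearest gene to SLPI and SLPI the 20th nearest to WFDC2 among 6764. With 6 arrays in 2 groups these values follow almost wholly from the step between the lines and are given as a description.

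**Figure D4:**
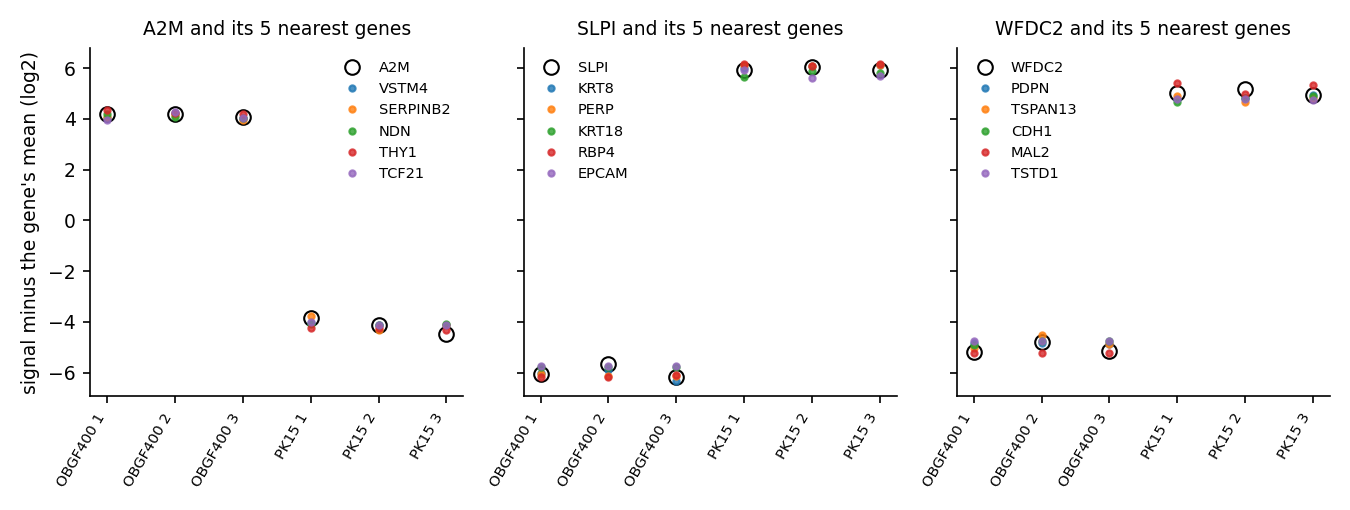
Log2 signal on each of the 6 arrays minus the gene's own mean, for A2M, SLPI and WFDC2 (open black circles) and the 5 nearest genes of each (small coloured points). Each set steps between OBGF400 and PK15 by nearly the same amount, and arrays of 1 line differ little beside that step.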

How the data were processed

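RNA signals of 6 arrays were used, 3 OBGF400 and 3 PK15, grouped by the sample titles. The authors deposited a log2 signal for every probe set on each array, made with affy per the submitters' processing notes; how background, summarisation and normalization were handled is not given in the sources used here. No value was filtered or rescaled. Of 24123 probe sets, 124 controls were left out. Symbols came from the platform annotation, in which 10069 tested probe sets had 1 symbol, 198 several and 13732 none. By Entrez number 9961 matched RefSeq genes of Sscrofa11.1, with 0 renamed. RefSeq served for names and gene order, since no build is named for the probes, and coordinates and sequences are not given. The probe set with the highest mean stood for a gene. The lines were compared by limma 3.58.1 (lmFit, eBayes, two-sided) in R 4.3.3 over 6765 genes, with Benjamini-Hochberg adjustment. On simulated data for this comparison over 6765 genes, it recovered 83 of 100 genes changed by 1 log2 unit and 98 of 100 changed by 2, and 15 of 196 calls (7.65%) were false. That exceeded both the nominal rate and the limit first set for the simulation, which was then relaxed. The changed genes were drawn only from those well above the floor in PK15, and most genes were left unchanged. Noise was normal, with no floor. In the data 60.8% of genes were called and many values lie at the floor, so these rates need not hold there. Other tables were made in Python 3.11.15. An exact permutation test of 3 against 3 cannot go below 0.1. With 6 arrays in all, precision is limited by their number.

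The members, gene lists and rules were chosen with earlier results of these data known. The text names, for each list up to 3 genes that rose most and 3 that fell most, provided they were called and their arrays were separate, the 5 nearest genes of each inhibitor, measured neighbours within 5 genes, and relatives of the inhibitors; ELANE, PRTN3, KLK7, SERPINA1, IL6R, SOCS3, STAT3, PLAU, PLG, SERPINI1, SERPINA5, C4A, CST6, CSTB and AHSG were named after their values were seen. Alternatives were the 32 offset, quantile normalization, median centring, scaling on 27 hybridization or 18 poly-A (dap and thr) control probe sets, averaging the probe sets of a gene, a filter on probe sets never above 2.13, a trended and robust variance, a stricter adjusted p threshold (0.01), a replicate block and the omission of each array.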

Additional observations from a re-analysis of the deposited data

How the results depend on the processing

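The hybridization controls differed by -0.82 and the dap and thr controls by 0.85 between the lines, so scaling on them moved the median of all genes from -0.002 to 0.82 and -0.86, and median centring to -0.08. The A2M, SLPI and WFDC2 differences kept their sign under every alternative. With 32 added they were 6.50, -9.08 and -7.18, scaled on the hybridization controls 9.13, -11.10 and -9.28, scaled on the poly-A controls 7.45, -12.78 and -10.96, and as means of probe sets 4.84 for A2M and -5.05 for WFDC2. Leaving out 1 array gave 8.15 to 8.46 for A2M, -12.08 to -11.82 for SLPI and -10.23 to -10.03 for WFDC2.

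Hybridization control scaling moved the higher and lower counts to 4487 and 1259 for all genes, 3 and 1 for the A2M family, 3 and 1 for WAP genes, 13 and 1 for serpins, 18 and 6 for cystatins and other inhibitors, 13 and 2 for proteases trapped by A2M, 11 and 4 for the elastase family, 12 and 0 for the IL-6 family and 5 and 10 for SLPI partners. Poly-A control scaling gave 763 and 5219, 1 and 4, 1 and 3, 5 and 10, 2 and 21, 5 and 9, 1 and 16, 4 and 5, and 1 and 15 in the same order. Genes at the floor in both lines took the sign of the scaling. Quantile normalization gave 2 higher genes in the A2M family (HSPA5 gained a call), and with means of probe sets 0 IL-6 family genes were lower (TYK2 at -0.17). Directions turned on hybridization controls for LRPAP1 (0.14), TYK2 (0.36), CSTB (0.44), PLAU (0.44), PHC1 (0.36), PIGT (0.80) and UPTI (0.76), and on poly-A controls for M6PR (-0.28), C4A (-0.72), HSPA5 (-0.67) and SYS1 (-0.73). Leaving out 1 array gave -0.11 to 0.06 for PIGT and -0.02 to 0.22 for SYS1, neither called. For 45 genes named from the lists, relatives and neighbours, leaving out those at the floor in both lines, 675 comparisons were made. Of these, 643 kept direction and side of the threshold. With the direction kept, 3 lost a call and 16 gained one. The other 13 turned direction and were counted only as such. Among them LRPAP1 and M6PR also lost a call, and C4A, HSPA5, SYS1, PIGT, PLAU and UPTI also gained one. Nearest genes and cell type markers were not included.

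Without 1 array the counts ranged from 1471 to 1575 higher and 2264 to 2441 lower for all genes, 1 to 2 higher and 2 lower for the A2M family, 1 and 1 for WAP genes, 5 and 1 for serpins, 6 higher and 9 to 10 lower for other inhibitors, 6 higher and 2 to 3 lower for trapped proteases, 1 and 5 for the elastase family, 6 to 8 higher and 1 lower for the IL-6 family and 1 higher and 11 to 13 lower for SLPI partners. The 2 in the A2M family came without OBGF400 replicate 3. The lines share replicate numbers, but deviations of same-numbered arrays correlated by 0.04, 0.01 and 0.02, so the numbers were not taken as pairs; with the replicate block 1478 genes were higher and 2304 lower, and 6 IL-6 family genes were higher.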

Other observations

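Genes of plasminogen activation were chosen here after their values were seen. The tissue activator PLAT averaged 6.49 ± 0.44 in OBGF400 and 11.64 ± 0.02 in PK15 (SD, n = 3 each), a call of lower by -5.15 that every alternative kept. The urokinase gene PLAU averaged 11.27 ± 0.15 in OBGF400 and 11.66 ± 0.19 in PK15, a difference without a call (-0.38, adjusted p = 0.0608). It was called after median centring (-0.46), with the filter on dim probe sets (adjusted p = 0.0458) and without PK15 replicate 2 (-0.49). Control scaling called PLAU in opposite directions, as higher on hybridization controls (0.44) and as lower on poly-A controls (-1.24). Of serpins that inhibit these activators, SERPINB2 and SERPINE2 were higher in OBGF400, by 8.12 and 5.09, whereas SERPINI1 and SERPINA5 were at the floor in both lines. PLG, the plasminogen gene, was at the floor in both lines.

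Cystatins, also picked after their values were seen, were called on both sides. CST6, an epithelial cystatin, averaged 2.93 ± 0.08 in OBGF400 and 7.06 ± 0.45 in PK15 (SD, n = 3 each), lower by -4.13 (-2.07 with 32 added, adjusted p = 0.000182). The intracellular CSTB differed by -0.39 (adjusted p = 0.00739), but was called as higher after hybridization control scaling (0.44, adjusted p = 0.0158). AHSG, the fetuin of plasma, was lower by -5.19 (-2.49 with 32 added, adjusted p = 2.42e-05), opposite to CST3.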
